A study of Mus musculus with 194 samples.

Results

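The 10 genes described here, Per1, Per2, Per3, Cry1, Cry2, Arntl, Clock, Nr1d1, Dbp and Bhlhe40, are the core of the mammalian circadian clock and the nearest of its outputs. They were taken by name, whatever their values, as 10 of the 19363 genes of a mouse count table, and all 10 were present. The question was which of them changed after cocaine and which differed between mice in other ways, given that some of these genes peak at opposite times of day. The libraries came from male C57BL/6OLAHSD mice with no transgene, from dissected dorsal striatum (DS), nucleus accumbens (NAc), limbic cortex (LCtx), amygdala (Amy) and lateral hypothalamus (LH). Acute mice received their first cocaine injection, repeated mice the fifth daily dose, and challenge mice 1 more dose after daily cocaine and abstinence. In each experience mice were taken 0, 1, 2 or 4 hr after the injection. The 0 hr mice came straight from the home cage. They were cocaine-naive in the acute group, a day past the fourth dose in the repeated group and abstinent in the challenge group. No group was injected with saline at matched times, and the hour of the day at which each mouse was taken was not given in the sources used here. By the study's methods, behaviour was run in the light phase and 0 hr mice were taken in between the others. Injection, time after cocaine and hour of day therefore cannot be told apart from the design alone.

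The clock is a loop of transcription and repression. Arntl (also called Bmal1) and Clock encode the paired activator that binds E-box elements, Per1, Per2, Per3, Cry1 and Cry2 encode the repressors that switch it off, and Nr1d1 (Rev-erb alpha) represses Arntl, so that Dbp and Nr1d1 run high when Arntl runs low. Per1, Per2 and Bhlhe40 also answer signals that reach a neuron from outside, through elements bound by CREB and other factors, which makes them genes of both the clock and the response to stimulation. Clock genes cycle over the day in most tissues, the striatum among them.

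The windows around the start sites that bear on the results are printed here to show where letters of such elements lie. Each is a RefSeq window on GRCm38.p6 that runs from 250 bases before to 50 bases after an annotated start, 5′ to 3′ on the strand of the gene, with the named match in capitals. Windows were present for 8 of the 10 genes and numbered 12 of 32851 in all. Per1 (chr11:69095217-69109960, plus strand, Ensembl span) had a pair of them inside its span. The first, chr11:69098699-69098998, held the E-box CACGTG 166 bases before the start.
Per1, first window: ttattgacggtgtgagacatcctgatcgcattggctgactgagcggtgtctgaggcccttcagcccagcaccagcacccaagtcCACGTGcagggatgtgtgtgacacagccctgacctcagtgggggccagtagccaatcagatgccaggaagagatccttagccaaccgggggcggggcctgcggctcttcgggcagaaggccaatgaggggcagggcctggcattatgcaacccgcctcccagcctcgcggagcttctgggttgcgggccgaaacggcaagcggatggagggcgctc
The other, chr11:69099902-69100201, held TGACGT, the core of a CREB element, 132 bases before the start.
Per1, second window: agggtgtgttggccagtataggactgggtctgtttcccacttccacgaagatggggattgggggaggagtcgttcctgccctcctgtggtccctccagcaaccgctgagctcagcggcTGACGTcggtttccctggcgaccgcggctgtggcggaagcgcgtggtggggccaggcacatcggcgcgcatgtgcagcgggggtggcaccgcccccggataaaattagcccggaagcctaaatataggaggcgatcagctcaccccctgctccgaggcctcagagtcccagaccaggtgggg
The window of Per3 (chr4:151044616-151044915, minus strand) held TTATGTAA, the D-box bound by the Dbp protein, at 205 and at 158 bases before the start.
Per3: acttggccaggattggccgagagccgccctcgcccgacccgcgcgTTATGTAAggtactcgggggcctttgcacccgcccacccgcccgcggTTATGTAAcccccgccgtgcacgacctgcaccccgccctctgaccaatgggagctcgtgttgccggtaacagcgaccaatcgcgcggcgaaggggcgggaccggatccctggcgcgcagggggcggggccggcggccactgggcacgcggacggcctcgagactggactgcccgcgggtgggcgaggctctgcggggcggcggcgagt
The window of Nr1d1 (chr11:98775328-98775627, minus strand) held AACGTG, the E-box-like CACGTT read on the other strand, 28 bases before the start.
Nr1d1: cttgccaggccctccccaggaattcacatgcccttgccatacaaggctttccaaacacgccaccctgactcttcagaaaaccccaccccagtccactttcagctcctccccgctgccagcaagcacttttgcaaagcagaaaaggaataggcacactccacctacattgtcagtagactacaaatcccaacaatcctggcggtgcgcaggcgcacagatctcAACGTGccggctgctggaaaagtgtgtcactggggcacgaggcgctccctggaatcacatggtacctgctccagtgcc
The second window of Arntl (chr7:113207261-113207560, plus strand) held AGGTCA, the core of the element that the Nr1d1 protein binds, 32 bases past the start.
Arntl, second window: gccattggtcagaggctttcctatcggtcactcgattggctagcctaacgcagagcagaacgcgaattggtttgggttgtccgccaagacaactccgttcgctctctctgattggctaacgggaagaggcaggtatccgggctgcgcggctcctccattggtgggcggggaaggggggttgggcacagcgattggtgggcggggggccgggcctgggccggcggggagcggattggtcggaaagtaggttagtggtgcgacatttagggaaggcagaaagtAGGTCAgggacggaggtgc
Counting both strands, CACGTG stood in 7.15% of all windows, CACGTT in 4.68%, TGACGT in 7.51%, TTATGTAA in 0.938% and AGGTCA in 16.3%. Of the other windows, Cry1 held CACGTG and AACGTG, Cry2 held AACGTG, the third window of Clock and the first of Per1 held TGACCT, which is AGGTCA read on the other strand, and Dbp held none of the motifs searched. These matches are descriptions of letters, not of binding.

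The count table held libraries of 166 mouse-structure samples from 48 mice, of which 28 were sequenced in a second run. Totals ran from 1193306 to 10367769 counts a library. Each time course below used 1 library per mouse and structure, which left 48 mice in DS, 36 in NAc, 28 in LCtx, 31 in Amy and 23 in LH, in 12 groups of 3 to 5, 2 to 4, 1 to 4, 2 to 4 and 1 to 2 mice. Levels are CPM, counts scaled by the library total. The DS, NAc and LH dissections carried the markers of their labels: the 8 striatal projection neuron genes summed to a median of 12315 CPM in DS, 7858 in NAc and 582 to 1055 elsewhere, and Hcrt and Pmch, the neuropeptide genes of the lateral hypothalamus, had medians of 5648 and 7160 CPM in LH. In Amy they had medians of 367 and 622 CPM, and in the other structures 3.57 CPM or less. Slc17a7, of cortical excitatory neurons, had medians of 1219 CPM in LCtx and 895 CPM in Amy. No markers particular to Amy were read. In such bulk samples fewer cells of a type and less RNA per cell cannot be told apart. In every structure the 3 experiences came from different cohorts of mice, and mostly from different sequencing runs, so cohort and experience cannot be told apart.

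Among the repressors Per1 was called in the most time courses, 6 of 15. In DS it rose 1 hr after the injection in all 3 experiences and was back near its 0 hr level at 4 hr. In acute mice Per1 stood at 85.8, 123, 125 and 151 CPM at 0 hr and at 258, 267, 268 and 269 CPM at 1 hr. At 2 hr it was at 131, 136, 145 and 150 CPM, and at 4 hr at 106, 115, 127 and 133 CPM. All 4 mice at 1 hr lay above every other acute mouse, while the 4 hr mice lay within the spread of the 0 hr mice. The log2 fold change at 1 hr was 1.18 ± 0.11 (SE, n = 4 against 4, 95% interval 0.96 to 1.40), and over the time course the adjusted p was 5.74e-15 (edgeR quasi-likelihood F test, Benjamini-Hochberg over all genes of the structure). A gene was called changed when that adjusted p was under 0.05 and its largest fold was over 1.2.

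After repeated cocaine Per1 stood at 85.8, 114, 117 and 123 CPM at 0 hr and at 166, 168, 208 and 223 CPM at 1 hr. At the challenge it stood at 87.3, 99.7 and 100.2 CPM at 0 hr and at 165, 167, 180 and 184 CPM at 1 hr. In both experiences each 1 hr mouse again lay above each 0 hr mouse. The log2 fold changes at 1 hr were 0.79 ± 0.11 (adjusted p = 1.47e-07, edgeR) and 0.87 ± 0.12 (adjusted p = 4.45e-08, edgeR). They were smaller than after acute cocaine, with differences of -0.39 ± 0.15 and -0.31 ± 0.16 on the log2 scale, but the test of the time course against that of the acute mice did not pass for either (adjusted p = 0.743 and 0.691, edgeR interaction test). Those differences set the acute libraries of 1 sequencing run against libraries of another. In the second libraries of 8 mice an experience, which came from 1 run, the same difference for Per1 was 0.16 for repeated and -0.16 for challenge cocaine (adjusted p = 1.00 for both, edgeR), so the direction turned for repeated cocaine. By that test 0 of the 20 member comparisons passed, where 0.0155% of all genes did for repeated and 0% for challenge cocaine. At an unadjusted p under 0.05 it left 792 and 700 genes.

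Per2 (chr1:91415982-91459324, minus strand), the second Period repressor, passed the test at the challenge, with its largest change at 2 hr. In challenge mice it stood at 24.4, 24.6 and 35.1 CPM at 0 hr, at 43.8, 46.3, 51.4 and 51.8 CPM at 2 hr and at 37.5, 37.5, 43.6 and 60.2 CPM at 4 hr. The mice at 2 and 4 hr lay above all 3 mice at 0 hr. The log2 fold change was 0.39 at 1 hr, 0.80 ± 0.17 at 2 hr and 0.71 ± 0.17 at 4 hr (adjusted p = 0.0158 over the time course, edgeR). The call rested on 2 of the 0 hr mice, since without replicate 2 or replicate 3 the adjusted p was 0.159 or 0.206 (edgeR). In acute mice Per2 stood at 26.1, 30.2, 32.6 and 42.0 CPM at 0 hr and at 37.0, 44.997, 46.6 and 46.7 CPM at 2 hr, which overlapped, with a log2 fold change of 0.41 (adjusted p = 0.410, edgeR). In repeated mice the log2 fold change at 2 hr was 0.37.

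Bhlhe40 (chr6:108660629-108666925, plus strand), which encodes Dec1, a repressor that competes for E-boxes, rose in DS after acute cocaine. It stood at 17.6, 17.7, 25.3 and 29.8 CPM at 0 hr and at 39.6, 41.9, 48.3 and 49.2 CPM at 1 hr. The groups did not overlap, and the log2 fold change was 1.06 ± 0.20 at 1 hr and 0.60 at 2 hr (adjusted p = 0.000636, edgeR). After repeated cocaine it was 0.38 at 1 hr and 0.46 at 2 hr (adjusted p = 0.117, edgeR), and at the challenge 0.56 and 0.60 (adjusted p = 0.520, edgeR). The differences from the acute time course did not pass the interaction test either: the difference of the 1 hr change after repeated cocaine was -0.68 ± 0.28 on the log2 scale (adjusted p = 0.818, edgeR). In the libraries of 1 run the direction turned, with 0.42 for repeated and 0.61 for challenge cocaine (adjusted p = 1.00 for both, edgeR).

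Counted over the time courses of DS, 2 of the 10 genes changed after acute cocaine (2.63% of all genes tested did), 1 after repeated cocaine (0.480% of all genes) and 2 at the challenge (0.673% of all genes). Taken time by time, Per1 and Bhlhe40 were higher at 1 hr after acute cocaine (0.697% of all genes were) and none of the 10 at 2 hr (0.619%). After repeated cocaine Per1 was higher at 1 hr (0.240%) and no member at 2 hr (0.0774%). At the challenge Per1 was higher at 1 hr (0.348%) and Per2 at 2 hr (0.224%). Of 35 marker genes of cell types tested in DS, 2 rose (Flt1 and Ly6c1 of endothelium) and 2 fell (Gfap of astrocytes and Ttr of choroid plexus) after acute cocaine, 1 fell after repeated cocaine and 0 changed at the challenge. Their part in the changes of the clock genes was not tested.

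**Figure D1:**
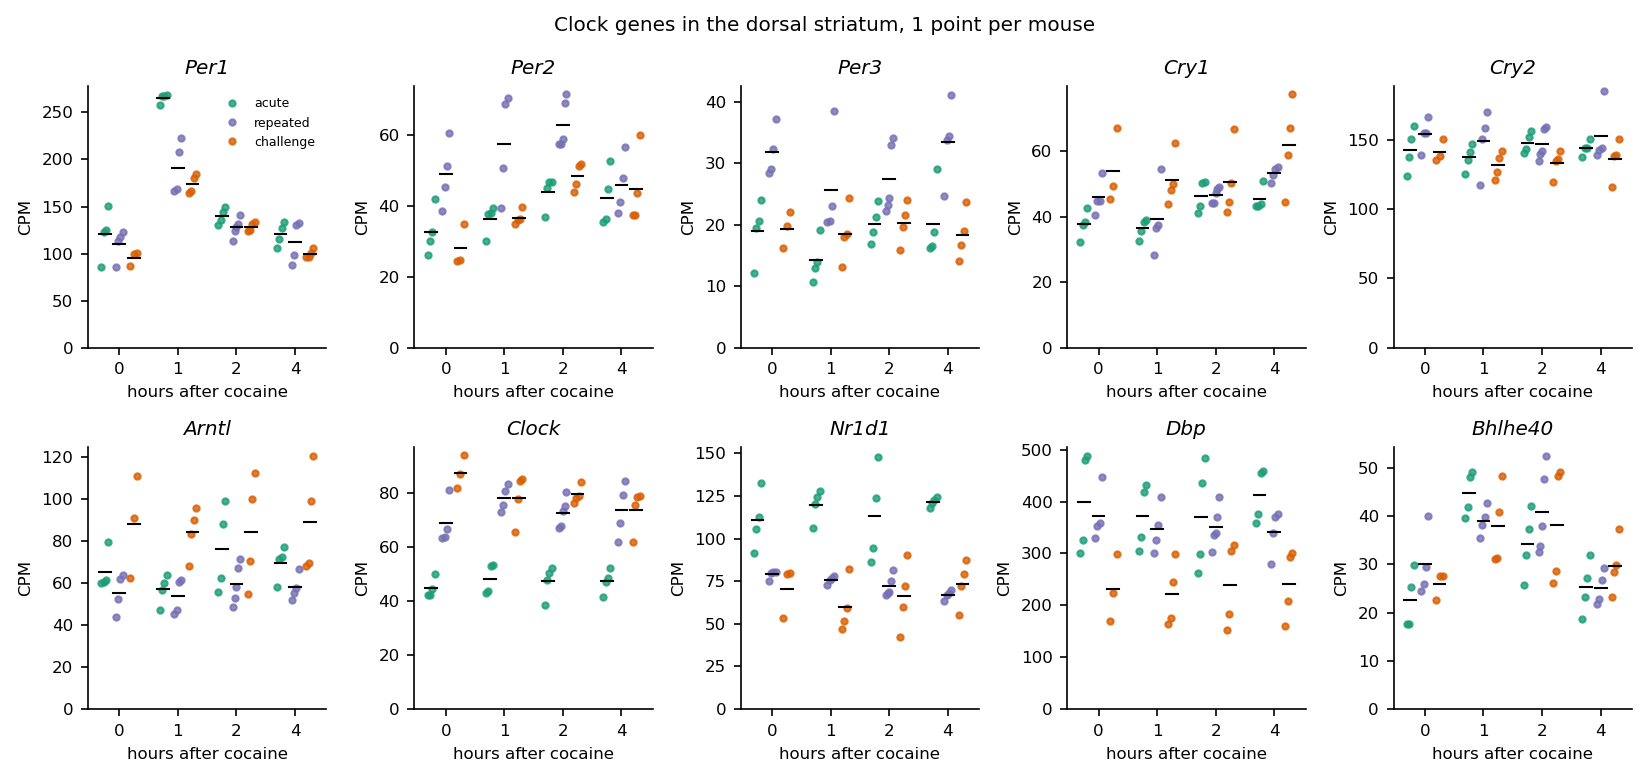
CPM of the 10 genes in DS by hr after cocaine, 1 point per mouse (3 to 5 mice a group), with black lines at group means and acute, repeated and challenge mice in separate colours. Per1 peaked at 1 hr in all 3 experiences, from 258 to 269 CPM in acute mice, while Dbp and Arntl showed mice far apart within some groups. Acute libraries were sequenced in another run than the rest, so heights are not compared between colours here.

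The other 7 genes were not called in DS in any experience. Dbp (chr7:45705088-45710203, plus strand), a D-box activator and the output gene with the widest daily swing, stood in acute mice at 301, 326, 479 and 488 CPM at 0 hr and at 358, 375, 455 and 460 CPM at 4 hr. The 4 hr mice lay inside the range of the 0 hr mice, and the log2 fold change was 0.043, with a 95% interval of -0.34 to 0.43. Arntl (chr7:113207465-113314126, plus strand), which peaks in the opposite phase, stood at 60.2, 60.4, 61.4 and 79.7 CPM at 0 hr and at 58.3, 71.3, 72.3 and 77.3 CPM at 4 hr. These overlapped too, with a log2 fold change of 0.073 (95% interval -0.30 to 0.44). Nr1d1 (chr11:98767932-98775333, minus strand), the repressor of Arntl, stood at 91.5, 105, 113 and 133 CPM at 0 hr and at 118, 121, 122 and 124 CPM at 4 hr, a log2 fold change of 0.11 (95% interval -0.18 to 0.41). None of the 3 passed the test in DS, and the intervals allow a change of up to about those bounds over the 4 hr. The spread behind them includes a difference between odd- and even-numbered mice given further on. Within odd-numbered mice Dbp changed from 0 to 4 hr by 0.23 and within even-numbered mice by -0.080 on the log2(CPM + 1) scale, 2 mice on each side.

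Nor did these genes pass in DS in the other experiences. Between 0 and 4 hr, Dbp differed by a log2 of -0.14 after repeated cocaine (95% interval -0.53 to 0.24) and of 0.079 at the challenge (-0.34 to 0.50). Arntl differed by 0.048 (-0.33 to 0.43) and -0.0038 (-0.37 to 0.36). Nr1d1 differed by -0.25 (-0.57 to 0.068) after repeated cocaine, where all 4 mice at 4 hr lay below those at 0 hr, and by 0.081 (-0.24 to 0.41) at the challenge. An opposite-phase difference, the mean log2(CPM + 1) of Dbp, Nr1d1 and Per3 minus that of Arntl, puts both sides on 1 scale. From 0 to 4 hr it moved by 0.0032 (SE 0.32) in acute, -0.17 (SE 0.22) in repeated and -0.0038 (SE 0.52) in challenge mice. At 2 hr it had moved by -0.19, -0.25 and 0.063. Within groups its SD was 0.45, 0.32 and 0.68.

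Per3 (chr4:151003652-151044665, minus strand), the third Period gene, had its largest fitted change at 1 hr after acute cocaine, a log2 of -0.42 (95% interval -0.88 to 0.043, adjusted p = 0.491, edgeR). The cryptochromes Cry1 (chr10:85131700-85185064, minus strand) and Cry2 (chr2:92403646-92434043, minus strand), which encode the partners of the Period proteins, moved by log2 values of -0.22 to 0.28 and of -0.095 to 0.033. Clock (chr5:76209868-76304792, minus strand), the partner of Arntl, moved by -0.26 to 0.18. None of these passed the test. Several of the genes share bases with another gene of the annotation. These overlaps are of whole gene spans, introns included, and shared exons were not looked for. Per3 lies with all its 41014 bases inside the span of Camta1 on the same strand. Its counts, which enter the opposite-phase difference, may therefore be uncertain whatever the strand setting, which was not tested. On the other strand Cry2 shares 23417 bases with D930015M05Rik, Arntl 2394 with Gm45355, Nr1d1 1075 with Thra, Dbp 737 with Sphk2 and Bhlhe40 306 with 0610040F04Rik, and Clock shares 4176 and 459 bases with Gm43658 and Ube2n-ps1 on its own strand. The strand used in counting was not stated, so reads of these pairs may be mixed.

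Outside DS only Per1 passed, and only after acute cocaine. In NAc it stood at 101, 107, 112 and 117 CPM at 0 hr and at 139, 151, 161 and 173 CPM at 1 hr, with a log2 fold change of 0.51 ± 0.084 (adjusted p = 0.000886, edgeR, 1 of the 10 genes against 0.185% of all genes). In LCtx it stood at 83.9, 92.7 and 109 CPM and then at 156 and 177 CPM, a log2 fold change of 0.78 ± 0.14 (adjusted p = 0.00616, edgeR, against 0.297% of all genes). In Amy it stood at 75.3 and 87.6 CPM and then at 113 and 115 CPM, a log2 fold change of 0.48 ± 0.12 (adjusted p = 0.0270, edgeR, against 0.0853% of all genes). In each of these structures the 1 hr mice lay above all the 0 hr mice. In LH, Per1 stood at 49.3 and 57.6 CPM at 0 hr and at 63.0 and 77.9 CPM at 1 hr, a fitted log2 difference of 0.41 that did not pass.

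These calls outside DS rested on few mice. Leaving out 1 replicate number in all groups of a structure gave an adjusted p in NAc of 0.131 without number 2 and 0.143 without number 4, and in Amy of 0.999 without number 1 and 0.563 without number 2 (edgeR). In LCtx it was 1.00 without number 2 and 0.0658 without number 3, and with each experience fitted alone 0.191 (edgeR). The log2 differences stayed at 0.41 to 0.55 in NAc, 0.68 to 0.97 in LCtx and 0.37 to 0.61 in Amy over these leave-outs. In Amy and LCtx they can leave 1 mouse at a time point, which is then assumed to vary like the other groups. Of the cell type markers tested in these acute time courses, 0 of 36 were called in NAc, 4 of 37 in LCtx and 1 of 37 in Amy. Ly6c1, of endothelium, was called in LCtx, with a log2 fold change of -0.49 at 1 hr (adjusted p = 0.0152), and in Amy, with -0.26 at 1 hr and 0.64 at 4 hr (adjusted p = 0.0114, both edgeR). Its part in the Per1 differences was not tested. The other 3 called in LCtx were striatal, with log2 fold changes at 1 hr of 2.30 for Drd2, 1.32 for Penk and 1.29 for Tac1. The 8 striatal markers summed to 217 to 302 CPM in the acute LCtx mice at 0 hr and to 266 and 766 CPM in those at 1 hr. Without the mouse at 766 CPM, a comparison chosen after seeing the data, which leaves 1 mouse at 1 hr, Per1 was higher by a log2 of 0.70 and the call was lost (adjusted p = 0.847, edgeR).

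No member was called outside DS after repeated cocaine or at the challenge, where the libraries of NAc, LCtx, Amy and LH mixed a pair of sequencing runs with no run term in the fit. All genes were called at rates of 0.0463% and 0.0925% in NAc, 0.0967% and 0.0744% in LCtx, 0.0233% and 0.109% in Amy and 0.0302% and 0% in LH, where the acute rate was 0.0529% and no member passed either. Per1 was nevertheless above its 0 hr values in every 1 hr mouse in all 15 structure and experience time courses, some with 1 or 2 mice a group. Of 10348 genes with a mean of at least 5 CPM in every structure, 2 did so in all 15 (0.0193%), and the median gene did so in 2. Its log2 differences at 1 hr in the 8 time courses outside DS that came after repeated cocaine or at the challenge were 0.41 and 0.22 in NAc, 0.55 and 0.47 in LCtx, 0.35 and 0.32 in Amy and 0.59 and 0.70 in LH. At 2 hr all Per1 mice lay above the 0 hr mice in 7 of the 15 (0.338% of genes in at least as many), and at 4 hr above in 2, below in 2 and overlapping in 11 (63.8% and 61.2% of genes in at least as many above and below). Bhlhe40 at 1 hr lay wholly above its 0 hr values in 7 of 15 (0.512% of genes in at least as many) and wholly below in 1 (82.9%). Dbp at 1 hr overlapped its 0 hr values in all 15, and at 4 hr lay wholly above in 1 and wholly below in 3, counts that 89.4% and 32.3% of genes reached. Nr1d1 at 4 hr lay wholly below its 0 hr values in 6 of 15 and above in 0, where 0.850% of genes lay below in at least as many. Of these 6, 4 came after repeated cocaine (DS, NAc, LCtx and Amy, which share mice) and 2 after acute cocaine (LCtx and LH). These counts were set beside those of all genes after seeing the data.

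**Figure D2:**
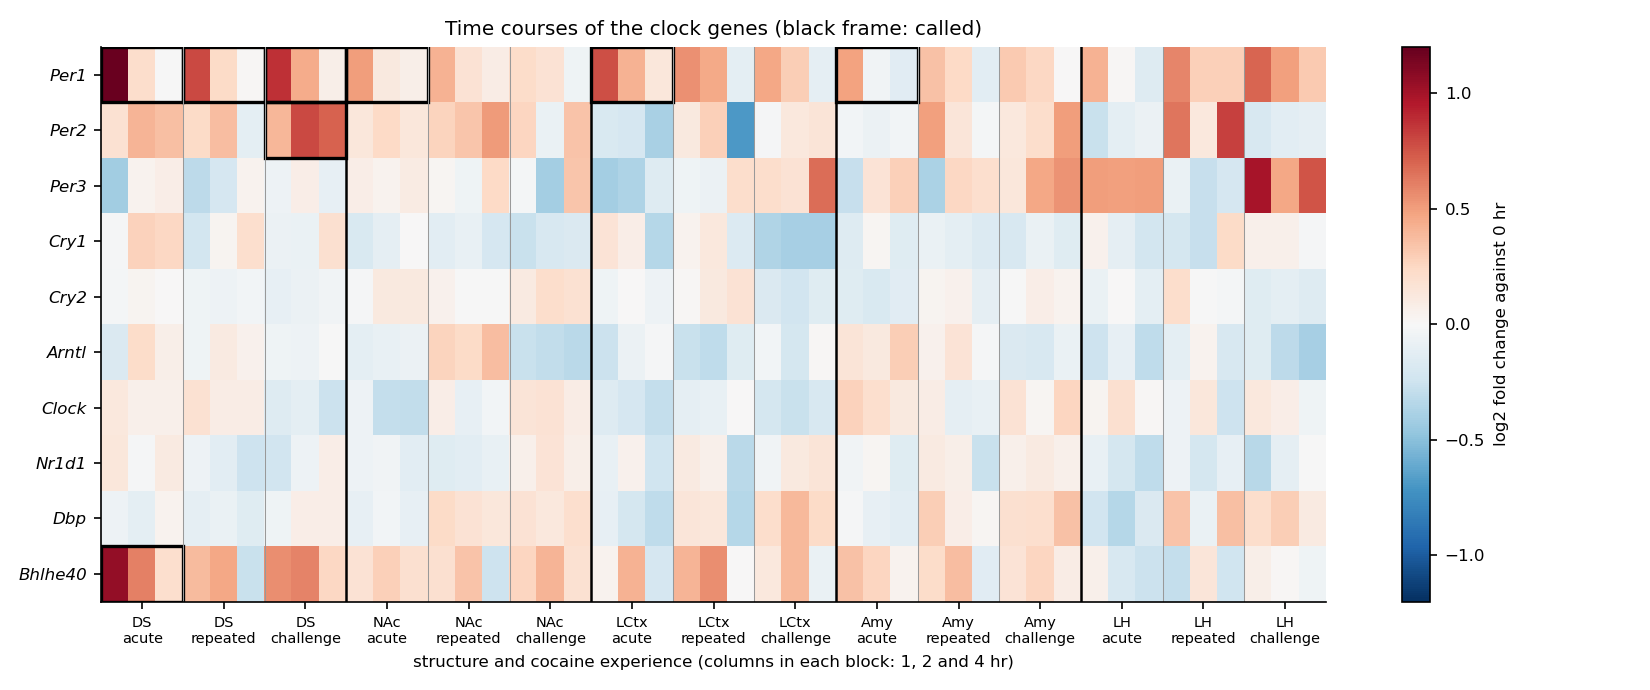
Log2 fold change against 0 hr (colour, red higher and blue lower) of each gene (rows) at 1, 2 and 4 hr in every structure and experience (columns), with a black frame around each of the 8 called time courses of 150. The Per1 row is red at 1 hr in each of the 15 blocks, from 0.22 in NAc at the challenge to 1.18 in DS after acute cocaine.

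Genes that share a pathway with these 10 were read in the same fits. Of 6 further core partners (such as Npas2 and the Ror genes), 8 outputs and repressors, 7 kinases and ligases and 4 entrainment genes, Ciart and Sik1 were called in DS after acute cocaine and Sik1 at the challenge. Ciart, a repressor also known as Chrono, had a log2 fold change at 1 hr of 0.98 (adjusted p = 0.0110, edgeR). Sik1, a kinase gene induced through CREB that limits light-driven shifts of the clock, had 1.86 after acute cocaine (adjusted p = 6.17e-05) and 0.92 at the challenge (adjusted p = 0.00183, edgeR). None of these genes was called after repeated cocaine in DS or in the other structures. Among glucocorticoid-responsive genes also read, Sgk1 alone was called, with its largest change at 1 hr. After acute cocaine its log2 fold change was 0.72 in DS (adjusted p = 0.00538), 0.54 in NAc (adjusted p = 0.0457) and 1.45 in LH (adjusted p = 0.00387, edgeR). In NAc at the challenge it was 0.65 (adjusted p = 0.00167, edgeR). Its part in the changes of the clock genes was not tested. Of 10 immediate-early genes, 8 rose and 1 fell after acute cocaine, 9 rose after repeated cocaine and 8 at the challenge in DS, with median log2 fold changes at 1 hr of 2.13, 2.19 and 1.67, beside -0.0060, -0.0076 and -0.0035 over all genes. Over the 48 DS mice, centred within experience, the genes most like Per1 among 10988 were Egr2 (r = 0.95), Tiparp (0.93) and Junb (0.92), and those most like Per2 were Htr1b (0.76), Kctd1 (0.73) and Sbk1 (0.71). Such r values describe these libraries and share their depth.

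Dbp and Arntl varied between mice of the same group, and in acute mice Dbp did so by animal number. This split was noticed after seeing the values and is given with no test. The labels number the acute mice 1 to 16, 4 to a time point, so that each time point held odd and even numbers alike. In DS the 8 odd-numbered mice had Dbp from 262 to 375 CPM (median 315) and the 8 even-numbered mice from 418 to 488 CPM (median 457). No odd-numbered mouse reached an even-numbered one. Of 10875 genes with a mean of at least 5 CPM, 3 separated the odd and the even mice without overlap (0.0276%): Dbp and Ano2 were higher in even-numbered mice and Hspd1, a chaperone gene, was lower. The gene most like Dbp over all DS mice was that same Ano2 (r = 0.81), followed by Camkk1 (0.78) and Nr1d1 (0.76).

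The split was also present in other libraries of these mice. In NAc the 7 odd-numbered mice had Dbp from 248.9 to 298 CPM and the 7 even-numbered mice from 308 to 363 CPM, again with no overlap, where 0.0805% of genes showed none. In the second DS libraries, from another run, 4 odd-numbered mice stood at 223 to 255 CPM and 4 even-numbered mice at 265 to 351 CPM, again apart, where 2.80% of all genes showed no overlap. Medians of odd and even mice were 172 and 202 CPM in LCtx, 177 and 186 CPM in Amy and 129 and 179 CPM in LH, with ranges that overlapped in these 3 structures of 4 mice each. Even-numbered mice thus had the higher median in all 5 structures.

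Arntl took the other direction. Its medians in odd and even mice were 74.3 and 60.1 CPM in DS, 42.7 and 36.4 CPM in NAc, 47.4 and 44.9 CPM in LCtx, 37.5 and 30.3 CPM in Amy and 24.7 and 22.0 CPM in LH. The ranges overlapped in each of the 5, and in the second DS libraries they did not (81.1 to 99.5 CPM in odd, 62.6 to 73.6 CPM in even mice), where 2.80% of all genes did not overlap between these 4 and 4 mice. For Per1 the medians in DS were 131 and 139 CPM, and its change at 1 hr on the log2(CPM + 1) scale was 1.33 in odd and 0.97 in even mice, with 2 mice on each side. For Dbp that change was 0.025 and -0.19. What differed between odd and even numbers is not given in the sources used here.

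Animal numbers also split some levels in 1 repeated cohort, noticed after seeing the values and given with no test. In the repeated cohort with all 5 structures, 4 odd-numbered mice of DS had Arntl from 43.7 to 55.1 CPM and 4 even-numbered mice from 60.6 to 71.6 CPM, with no overlap (2.88% of all genes showed none). Dbp of the same DS libraries ran from 354 to 410 CPM in odd and from 280.5 to 359 CPM in even mice, which overlapped narrowly. In NAc, Dbp ran from 269 to 346 CPM in odd and 253 to 266 CPM in even mice (2.83% of all genes did not overlap), and in Amy from 168 to 241 and from 127 to 157 CPM (2.76%). In LH the ranges overlapped (119 to 204 CPM in odd and 89.6 to 135 CPM in even mice), as they did in LCtx, where the medians were 196 and 202 CPM. The medians of Dbp were thus higher in odd-numbered mice in DS, NAc, Amy and LH, the reverse of the acute cohort, and not in LCtx. Per3 also separated in NAc, from 24.6 to 31.8 CPM in odd and from 19.97 to 23.3 CPM in even mice. No other member separated in any structure of this cohort, where 5.31% of all genes showed no overlap in LCtx and 3.02% in LH. In the other repeated cohort, of 6 odd and 3 even DS mice, Dbp and Arntl overlapped, and in the challenge cohort neither separated by odd and even number in any structure.

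**Figure D3:**
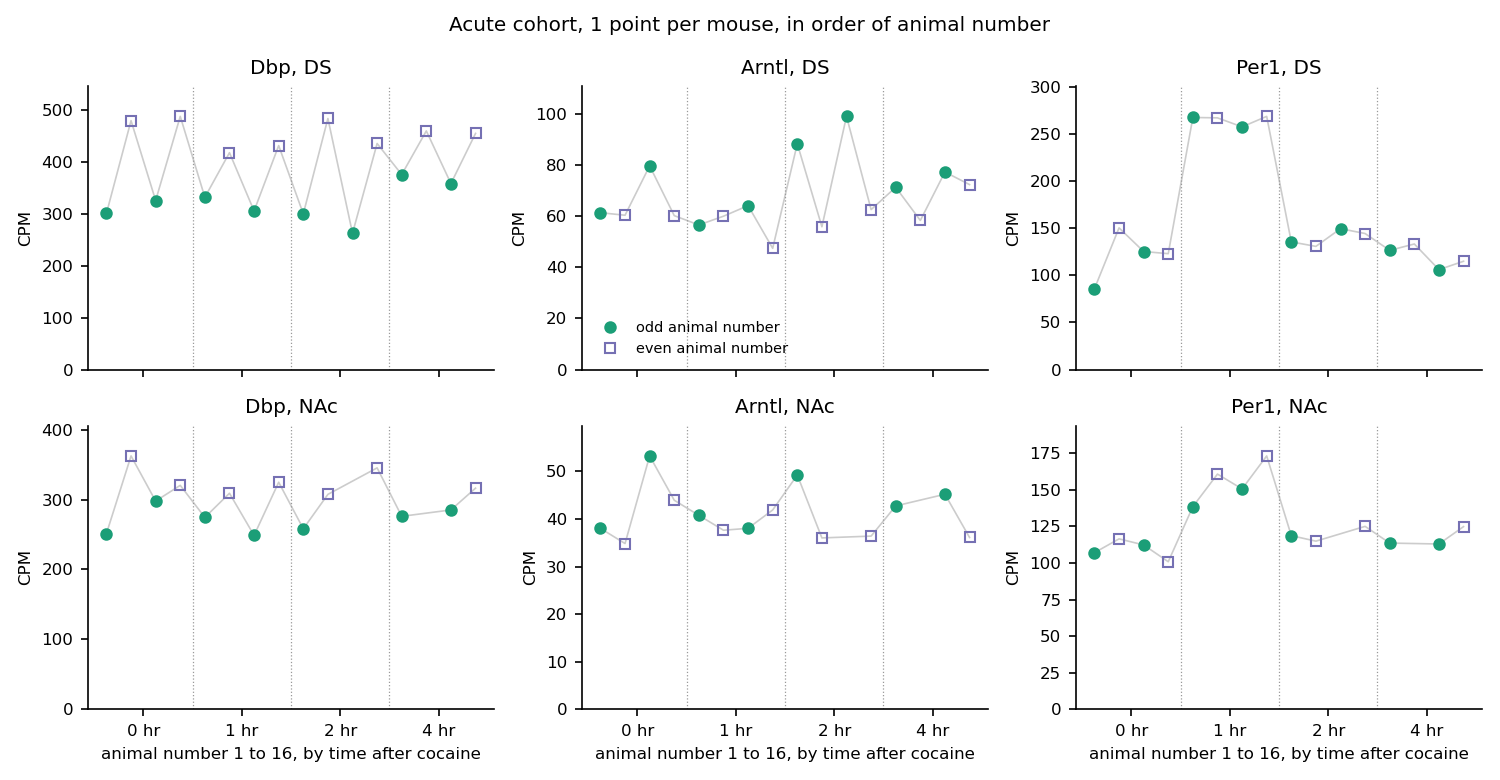
CPM of Dbp, Arntl and Per1 (columns) in DS and NAc (rows) of the acute mice in order of animal number, with filled circles for odd and open squares for even numbers, dotted lines between the times after cocaine and a grey line that joins neighbouring mice. Dbp alternated from mouse to mouse, with 262 to 375 CPM in odd and 418 to 488 CPM in even mice of DS, while Per1 rose in all 1 hr mice.

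Challenge mice were also split into sets by their Dbp. Sorted by Dbp, the 15 DS mice had their widest gap between 245 and 293 CPM, with 9 mice below it (153 to 245 CPM) and 6 above (293 to 317 CPM). Arntl ran from 83.5 to 121 CPM in those 9 mice and from 55.0 to 70.5 CPM in those 6, with no overlap, and both sets held mice of all 4 time points. The 6 mice of high Dbp were animals 2, 7, 9, 11, 13 and 15, so that from animal 7 on the sets alternated by number, while animals 1, 3, 4, 5 and 6 were all in the set of low Dbp. Of 10991 genes with a mean of at least 5 CPM, 25 separated these 9 and 6 mice without overlap (0.227%). The sets were cut by Dbp after seeing its values, so the levels are a description.

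Levels were also followed between structures of the same mouse, for all 10 genes over the 36 mice with both DS and NAc, as deviations of log2(CPM + 1) from the mean of the mouse's group. After adjustment over the 10 genes 5 passed. Over 10755 genes the median r was 0.049, with 1.94% of genes at or above Per2 and 0.948% at or above Cry1, and 6 genes, Hsph1, Hspa5, Calr, Hspa8, Sdf2l1 and Xbp1, chaperones and a regulator of the response to unfolded protein, stood above every member. Cry1 had r = 0.52 and rho = 0.56 (adjusted permutation p = 0.00362 and 0.00115) and Per2 r = 0.45 and rho = 0.44 (adjusted permutation p = 0.0107 and 0.0146). Arntl had r = 0.77 and rho = 0.73, Dbp 0.71 and 0.66 and Nr1d1 0.66 and 0.74. Sets of acute and of challenge mice that differ in Dbp and Arntl are described above. In the challenge mice of DS, Cry1 (r = 0.80) and Nr1d1 (r = -0.81) also went with Arntl. The values of Arntl, Dbp, Nr1d1 and Cry1 can therefore rest in part on distance between sets, and r within sets was not computed. Without the 2 mice farthest out in DS, r was 0.64 for Cry1, 0.46 for Per2, 0.70 for Arntl, 0.78 for Dbp and 0.60 for Nr1d1.

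Within 1 experience the relations were uneven. Among the 14 acute mice Dbp passed (r = 0.85, adjusted permutation p = 0.0017) and Arntl did not (r = 0.59, adjusted permutation p = 0.0898). Among the 14 challenge mice Arntl (r = 0.85, adjusted permutation p = 0.0016), Nr1d1 (r = 0.76, adjusted permutation p = 0.00975) and Cry1 (r = 0.67, adjusted permutation p = 0.0230) passed in r and in rho. Dbp (r = 0.61, rho = 0.48) and Per2 (r = 0.67, rho = 0.48) passed there in r alone. Per1 had r = -0.043 and rho = -0.17 over the 36 mice (adjusted permutation p = 0.806 and 0.445), and Per3, Cry2, Clock and Bhlhe40, with r from -0.064 to 0.25, did not pass either.

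Over all 10 pairs of structures, a family of 100 relations added after seeing the data, Dbp passed in 8 pairs (r from 0.58 to 0.82), Arntl in 6, Nr1d1 and Cry1 in 4 each, Per2 in 2, Per1, Per3 and Clock in 1 each, and Cry2 and Bhlhe40 in 0. These relations were positive except that of Per2 between LCtx and Amy, with r = -0.56 and rho = -0.57 (19 mice, adjusted permutation p = 0.0428 and 0.0438). The pairs share mice, and the challenge libraries of NAc, LCtx, Amy and LH of a mouse were mostly sequenced in the same run. With deviations taken from the mean of group and run, r over the 10 pairs ran from 0.25 to 0.85 for Dbp, from 0.42 to 0.81 for Nr1d1, from -0.52 to 0.80 for Arntl (9 of 10 positive), from -0.59 to 0.58 for Cry1 (8 of 10) and from -0.60 to 0.44 for Per2 (9 of 10, LCtx and Amy being the negative pair). Of the other 5 genes Per3 was positive in 10 pairs, Per1 in 8, Clock and Bhlhe40 in 6 each and Cry2 in 2. In the 17 repeated mice Arntl and Dbp of the same DS library had r = -0.69 and rho = -0.64 (adjusted permutation p = 0.00947 and 0.0226 over 36 relations, chosen after seeing the data), and r = -0.79 without the 2 mice farthest out. No other member passed against Arntl in these 17 mice. Nr1d1 had r = 0.13 (adjusted permutation p = 0.715) and Per3 r = -0.37 (adjusted permutation p = 0.238). Among 8 of these mice Arntl separated by animal number, as given above.

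**Figure D4:**
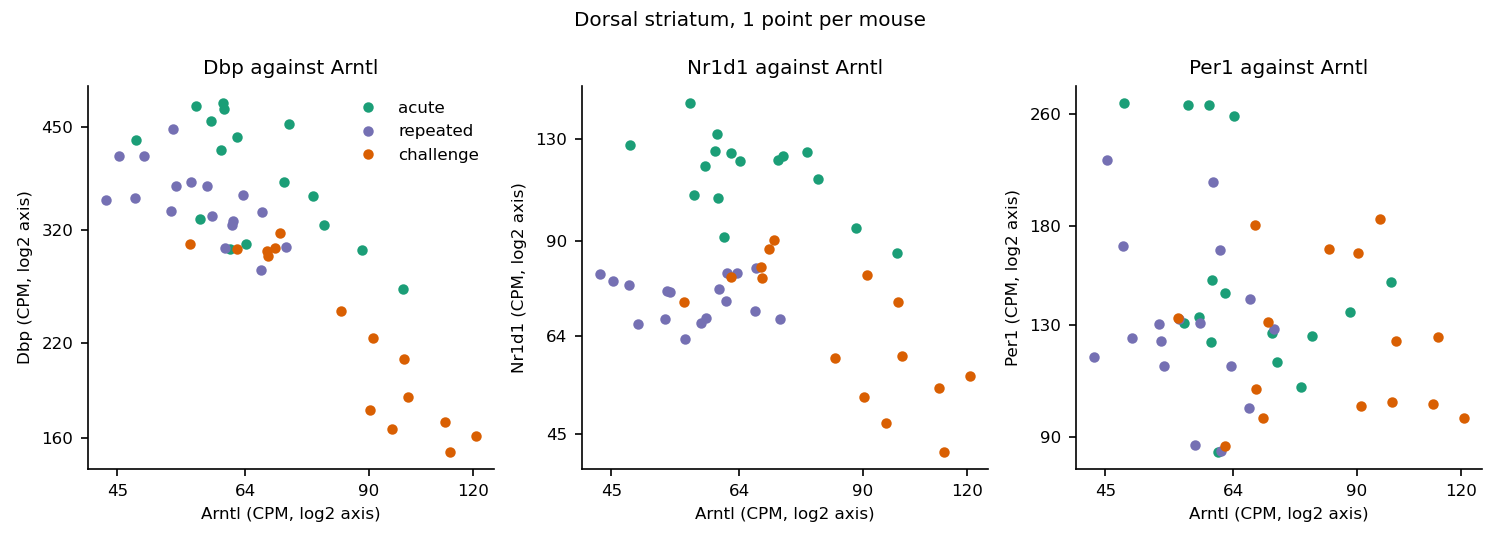
CPM of Dbp, Nr1d1 and Per1 against Arntl in DS on log2 axes, 1 point per mouse, in acute, repeated and challenge colours. Challenge mice with Arntl above 83 CPM had Dbp of 245 CPM or less, those with Arntl below 71 CPM had Dbp of 293 CPM or more, and Per1 spread over its range at any Arntl level.

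Levels between experiences were compared only within a sequencing run that held both. In 1 such run 8 acute, 8 repeated and 8 challenge DS libraries were present, 2 mice for each time point, and the acute libraries were shared by both comparisons. Averaged over the times, 4 of the 10 genes differed between repeated and acute mice, where 12.7% of all genes did. Arntl ran from 62.6 to 99.5 CPM in acute mice (median 77.3) and from 23.1 to 69.7 CPM in repeated mice (median 57.4), which overlapped narrowly, and its log2 difference was -0.68 ± 0.14 (adjusted p = 0.00038, edgeR). In their libraries of another run the same 8 repeated mice had Arntl from 43.7 to 71.6 CPM, so the level of 23.1 CPM was not seen there. Cry1 was higher after repeated cocaine by 0.45 ± 0.14 (adjusted p = 0.0192), Dbp by 0.32 ± 0.088 (adjusted p = 0.00843) and Nr1d1 by 0.32 ± 0.11 (adjusted p = 0.0315, edgeR). Acute and repeated medians were 40.5 and 59.0 CPM for Cry1, 260 and 353 CPM for Dbp and 94.1 and 114 CPM for Nr1d1. Between challenge and acute mice 0 of the 10 differed, where 16.7% of all genes did. The nearest were Cry1, with 0.38 (adjusted p = 0.05002), and Cry2, with -0.23 (adjusted p = 0.0257, edgeR) at under 1.2-fold.

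The Cry1, Dbp and Nr1d1 calls between repeated and acute mice were lost when some replicate numbers were left out, with log2 differences of 0.27 to 0.53, 0.27 to 0.36 and 0.25 to 0.37 over the leave-outs. In 0 hr mice alone, 2 against 2, no member passed, with -0.93 for Arntl, 0.46 for Cry1, 0.28 for Dbp and 0.13 for Nr1d1. Of 30 cell type markers tested in that run, 7 were called between repeated and acute and 10 between challenge and acute. Mbp, of oligodendrocytes, was lower, with log2 differences of -0.44 and -0.83, and the 5 oligodendrocyte markers summed to 10560 to 12061 CPM in acute, 8283 to 10192 CPM in repeated and 6333 to 9165 CPM in challenge libraries. Their part in the differences of the clock genes was not tested.

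The largest set of DS libraries in 1 run held 15 challenge and 17 repeated mice, and comparing these was chosen after seeing the data. There 4 of the 10 genes differed, where 11.2% of all genes did: Arntl was higher in challenge mice, and Dbp, Per2 and Per3 were lower. Arntl had a lowest, median and highest level of 43.7, 57.7 and 71.6 CPM in repeated and of 55.0, 90.3 and 121 CPM in challenge mice. Dbp had 280.5, 354 and 447 CPM in repeated and 153, 224 and 317 CPM in challenge mice. Both genes overlapped between the groups, through the 6 challenge mice of high Dbp named above. The log2 differences were 0.61 ± 0.089 for Arntl (adjusted p = 1.20e-06), -0.59 ± 0.089 for Dbp (adjusted p = 2.00e-06), -0.62 ± 0.096 for Per3 (adjusted p = 3.59e-06) and -0.45 ± 0.078 for Per2 (adjusted p = 2.12e-05, all edgeR).

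Of the rest, Cry1 was higher, at 0.24 (adjusted p = 0.0170) and Cry2 lower, at -0.14 (adjusted p = 0.0221, edgeR), both under 1.2-fold. Per1, Clock, Nr1d1 and Bhlhe40 had log2 differences of -0.12, 0.12, -0.11 and -0.0073 (adjusted p = 0.0917, 0.0832, 0.289 and 0.965, edgeR). In the second libraries of 8 challenge and 8 repeated mice, Arntl (0.78, adjusted p = 0.000372) and Dbp (-0.52, adjusted p = 0.000160) were called again, and Per3 (-0.45, adjusted p = 0.0848) and Per2 (-0.28, adjusted p = 0.211, edgeR) were not. Among the outputs and repressors of the pathway lists, 4 of 8 were lower and 2 higher in challenge mice: Tef by -0.42, Hlf by -0.46, Ciart by -0.74 and Usp2 by -0.29, against 0.93 for Nfil3, a D-box repressor, and 0.32 for Noct. Of the 6 core partners 1 was lower, Arntl2 by -0.87, and of the 7 kinases and ligases 0 were called. Of 4 entrainment genes 2 were higher, Sik1 by 0.68 and Crem by 0.54.

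Markers of other cells moved in the same comparison. All 5 oligodendrocyte markers were lower, with a median log2 of -0.47, and summed to 8537 to 12974 CPM in repeated and 6330 to 9511 CPM in challenge mice. Of 4 cortical excitatory markers 3 were higher (sums of 5.87 to 29.1 and 13.5 to 72.0 CPM), both blood markers tested and 2 of 4 choroid plexus markers (Ttr and Folr1) were higher, and 0 of the 8 striatal markers differed. Of 10 immediate-early genes 7 were higher, with a median of 0.62. Of 7 glucocorticoid-responsive genes 1 was higher and 2 were lower. No gene of these lists was at 0 in all libraries of either group, and their part in the differences of the clock genes was not tested. The repeated mice came from 2 cohorts in that run, 9 mice and 8 mice. Between these, a comparison also chosen after seeing the data, 0 members were called where 8.06% of all genes were, with 3396 genes at an unadjusted p under 0.05 in edgeR, and Arntl and Dbp differed by log2 values of -0.045 and -0.093.

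In Amy and LH, acute and repeated mice were sequenced in 1 run, 8 and 8. In Amy 1 of the 10 genes differed, where 8.92% of all genes did: Arntl ran from 28.2 to 41.7 CPM (median 35.6) in acute and from 21.8 to 30.5 CPM (median 25.2) in repeated mice, a log2 difference of -0.43 (adjusted p = 0.00155, edgeR). In LH 1 of the 10 differed, where 4.76% of all genes did: Bhlhe40 ran from 34.3 to 45.2 CPM in acute and from 25.7 to 43.1 CPM in repeated mice, with a difference of -0.27 (adjusted p = 0.028, edgeR). The groups overlapped in both. Without acute replicate 1 the adjusted p of Arntl in Amy was 0.113, and the LH call was lost without acute replicate 1, acute replicate 2 or repeated replicate 2. In Amy 14 of 35 cell type markers were called, 7 of them striatal and lower after repeated cocaine. The 4 cortical excitatory markers of Amy summed to 549 to 819 CPM in acute and 925 to 1182 CPM in repeated mice, with no overlap. In LH 10 of 36 were called. The part of these markers in the Arntl and Bhlhe40 differences was not tested.

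Levels between structures differed for most of the genes. Between Amy and LH of the same 16 mice, sequenced in 1 run and not paired by mouse in the fit, 7 of 10 were called, where 44.7% of all genes were, and all 7 were higher in Amy: Per2 by a log2 of 0.74, Per1 by 0.61, Nr1d1 by 0.53, Cry2 by 0.49, Arntl by 0.39, Bhlhe40 by 0.38 and Dbp by 0.28. Cry1 (0.21) stayed under 1.2-fold, and Per3 (0.19) and Clock (0.049) did not pass. Among LCtx, NAc, Amy and LH of challenge mice 9 of 10 were called, all but Clock (adjusted p = 0.0707, edgeR), where 79.0% of all genes were. These 49 libraries came from 15 mice, which the fit did not pair either. The share of members is near that of all genes there.

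Bhlhe40 had the widest range in challenge mice, a fitted fold of 3.44, with mean CPM of 117 in LCtx, 51.8 in Amy, 36.4 in NAc and 36.2 in LH. LCtx did not overlap Amy, while Amy, NAc and LH overlapped their neighbours in that order. Dbp had mean CPM of 222 in NAc, 136 in LCtx, 126 in Amy and 85.2 in LH (fitted fold 2.66), and Per1 108 in LCtx, 100.3 in NAc, 69.6 in Amy and 46.2 in LH (2.52), with each neighbour overlapping the next. The other fitted folds ran from 1.14 for Clock, which was not called, to 2.22 for Nr1d1. DS of the same mice, sequenced in another run and so not tested, had mean CPM of 233 for Dbp, 126 for Per1 and 86.6 for Arntl.

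**Figure D5:**
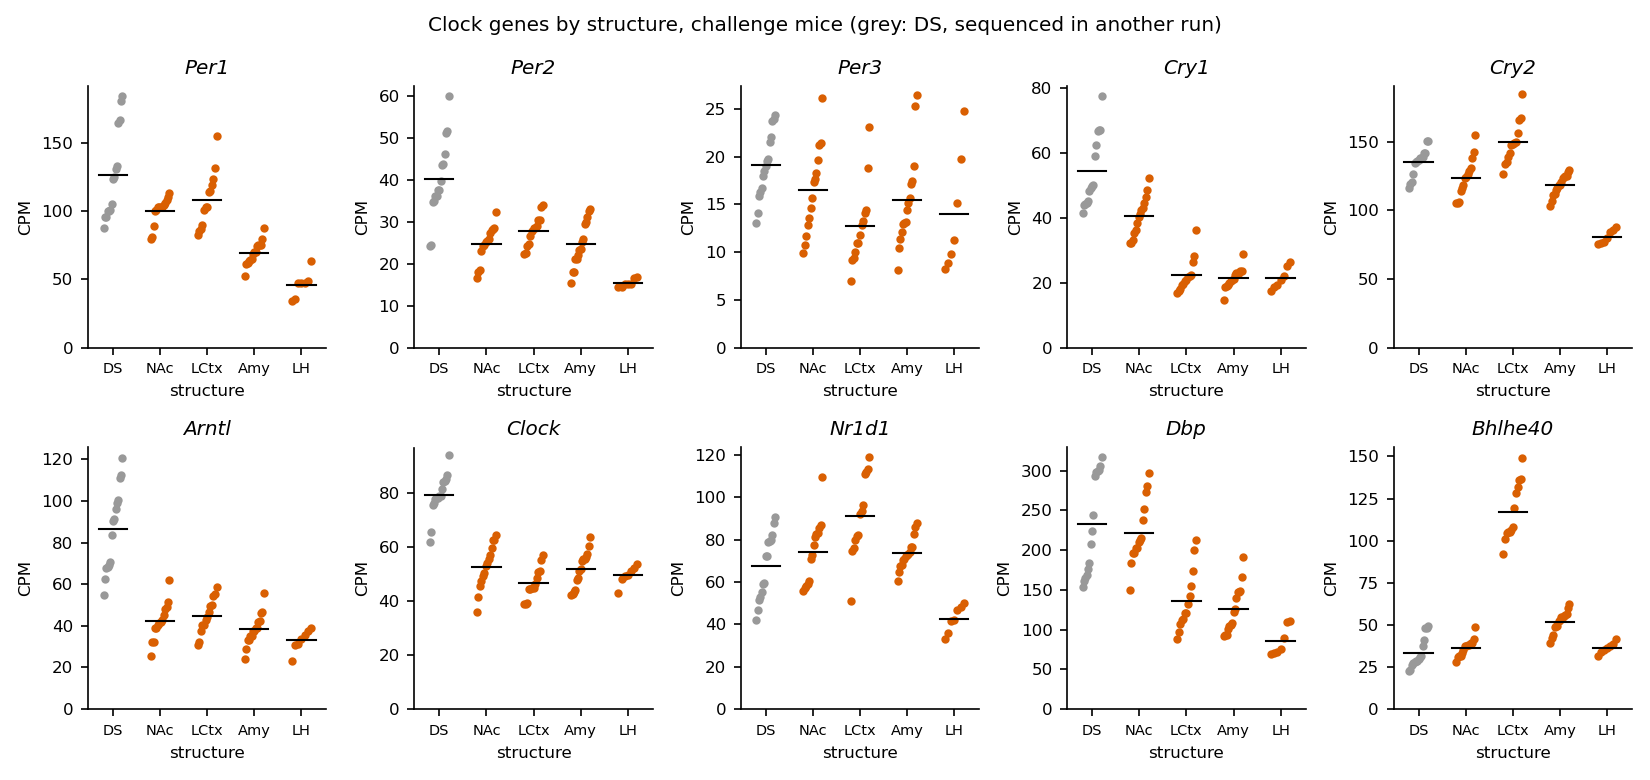
CPM of the 10 genes in the challenge mice by structure, 1 point per mouse with the mean as a black line and DS in grey. Bhlhe40 stands at a mean of 117 CPM in LCtx against 36.2 to 51.8 CPM in NAc, Amy and LH, and DS was sequenced in another run.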

How the data were processed

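Total RNA of dissected mouse brain structures was sequenced from the 3′ end. The deposited values were whole-number counts per gene. The authors collapsed reads by molecular identifier, trimmed poly(A), and used STAR for alignment to GRCm38 and HTSeq for the counts. Tool versions and the strand setting are not given in the sources used here. The study's methods also describe down-sampling of the deepest samples. Whether the deposited counts include that step was not tested. Experience, time, structure, cohort, animal number and run were read from the labels, and no column was left unmapped (0).

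The 10 genes and all gene lists were chosen with earlier results of these data known. Genes to be named were the 10 members, the called genes of the pathway lists, and the 3 genes most like a member over DS mice with a mean of at least 5 CPM. Counts were fitted with edgeR 4.0.16 (quasi-likelihood test, limma 3.58.1, R 4.3.3) after its filter on low counts and TMM scaling, over all libraries of a structure with 1 coefficient a group, and p-values were adjusted over all genes. A gene was called at an adjusted p under 0.05 and a fold over 1.2 at its largest time point. Errors of log2 fold changes are SE, and errors of CPM are the spread of mice. CPM used each library's total, and log values a pseudocount of 1. For mice sequenced more than once, 1 library entered the time courses. Correlations used 2-sided permutation tests with 100000 resamples. Python 3.11.15, numpy 2.4.6, pandas 2.3.3, scipy 1.17.1 and matplotlib 3.10.9 served for values and plots. The tests were tested on simulated data before use.

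Each library is 1 mouse and structure. The labels give a separate animal number for each mouse of a cohort, and mice were matched across structures by cohort and number. No pair of libraries of a group (178 pairs) differed by as little as sampling noise, since the lowest chi-square per gene was 1.72. Over all genes same-numbered replicates did not deviate together (median r of -0.00042 to 0.0087 by structure), so the main fits did not pair samples by these numbers. Such a median does not cover single genes. In acute DS, replicates 2 and 4 at 0, 1 and 4 hr were even-numbered animals, with higher Dbp than replicates 1 and 3. Depth limits low genes, and p-values cover the spread between these mice only. Alternatives were RLE scaling, DESeq2 1.42.0, no filter on low counts, a replicate block, each experience alone, pseudocount 0.1, other libraries of the same mice, and leaving out each replicate. The comparison of challenge with repeated mice in 1 run, that of the cohorts of repeated cocaine, LCtx without 1 mouse, the odd and even animal numbers, r centred by run, the sets of challenge mice and the relations beyond DS and NAc were added after seeing the data.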

Additional observations from a re-analysis of the deposited data

Results flagged for a closer look

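In groups of 4 to 10 mice, 221 were examined for a mouse far from the others, and 8 had one, where chance flags about 1 in 20 groups. Per1 of DS 1 hr after acute cocaine had one mouse at 257.8 CPM below the other 3 at 267 to 269 CPM, a gap that is small beside the rise from 0 hr. Per3 of DS had 38.6 CPM in one mouse 1 hr after repeated cocaine, the others being at 20.5 to 23.0 CPM. Cry1 of DS had 50.8 CPM in one acute mouse at 4 hr (others 43.1 to 43.8 CPM). Cry2 of DS had 185 CPM in one repeated mouse at 4 hr (others 139 to 144 CPM). Arntl of DS had 79.7 CPM in one acute mouse at 0 hr (others 60.2 to 61.4 CPM), and Nr1d1 of DS had 75.3 CPM in one repeated mouse at 0 hr (others 79.9 to 80.3 CPM). Bhlhe40 of NAc had 33.4 CPM in one challenge mouse at 1 hr (others 37.2 to 37.9 CPM). The opposite-phase difference of DS was 0.24 in one repeated mouse at 4 hr, beside 0.75 to 0.82 in the others.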

How the results depend on the processing

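Of 708 alternative values, 640 kept their call or, for counts and values with no test, stayed near the main value. Another 37 kept the direction and lost the call, 31 counts moved, and 0 called values reversed. The opposite-phase differences of acute and challenge mice, which are near 0, changed sign within their spread. The counts of called members that moved were these, and the cause was not tested. In LCtx the count of 1 became 3 with no filter on low counts, 2 with the replicate block, with DESeq2 and with each experience alone, and 0 without the mouse of highest striatal markers. In LH the count of 0 became 1 with no filter. Between repeated and acute mice the DS count of 4 became 0 in 0 hr mice alone and 2 with DESeq2, the Amy count of 1 became 0 in 0 hr mice alone, and the LH count of 1 became 0 in 0 hr mice alone and with DESeq2. Between challenge and acute mice of DS the count of 0 became 1 with RLE scaling, with no filter and with the replicate block. Between challenge and repeated mice of DS the count of 4 became 2 in the second libraries and 1 in 0 hr mice alone, fits with fewer mice.

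Leaving out 1 replicate at a time gave counts over time of 4 to 6 in DS, 0 to 1 in NAc, 0 to 2 in LCtx, 0 to 1 in Amy and 0 to 0 in LH, where leaving out challenge replicate 1 gave no value. It gave 1 to 4 (DS repeated against acute), 0 to 3 (DS challenge against acute), 0 to 2 (Amy), 0 to 1 (LH), 4 to 5 (DS challenge against repeated), 6 to 8 (Amy against LH), 8 to 9 (structures of challenge mice) and 0 to 0 for the cohorts and for the time courses against acute. The opposite-phase difference from 0 to 4 hr ran from -0.10 to 0.14 in acute, -0.26 to -0.032 in repeated and -0.31 to 0.35 in challenge mice. The replicate block, for which no pairing was seen over all genes, changed no count by over 1.5 times beyond the 2 in LCtx and the 1 in DS challenge against acute. With that block Cry1 between repeated and acute DS mice was no longer called (adjusted p = 0.378, edgeR). Many groups of LH, Amy and LCtx held 1 or 2 mice.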
